A study of Mus musculus with 22 samples.

Results

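The expression of 10 genes that mark monocytes and the macrophages that arise from them was followed in mouse lung after aerosol challenge. The genes were fixed by name (Ms4a7, Ly6c2, Ccr2, Itgax, Cx3cr1, Cd14, Fcgr1, Cd68, Trem2 and Csf1r) and all 10 were found among the 20938 genes of the deposited table. The naming rule uses no measured value, but the genes were chosen with earlier results of these data known. The shares of members called below are therefore not those of an independent choice. All 10 passed the filter on low values. RNA came from the lungs of BALB/c mice (spelled BABL/c in the labels) that had received an intraperitoneal sensitization on day 49 of life and an intraperitoneal booster on day 63; the labels do not name the sensitizing agent. From day 70 the mice inhaled ovalbumin (OVA, the egg-white allergen of many mouse asthma models), methacholine (MCh, a muscarinic agonist that narrows the airways) or phosphate-buffered saline (PBS). In the long protocol challenges were given 3 times weekly over 4 weeks, with 4 OVA, 4 MCh and 3 PBS libraries, and in the short protocol daily over 3 days, again with 4 OVA, 4 MCh and 3 PBS libraries. The libraries are numbered as biological replicates, which the labels do not describe further. The labels disagree with one another in part: titles give 4 days for the short MCh challenge, titles call the PBS and MCh mice normal although the treatment text calls them sensitized, and the series design names trachea where each sample names lung. Lung epithelial markers summed to between 39035 and 68694 FPKM in every library (FPKM, fragments per kilobase of transcript, scaled to library size), while the cartilage markers Col2a1 and Acan together reached at most 0.205 FPKM.

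Monocytes leave the bone marrow through the chemokine receptor Ccr2 and circulate as a classical subset, rich in Ly6C and Ccr2, and a patrolling subset, rich in Cx3cr1. In an inflamed lung the classical cells enter the tissue and become macrophages, a change that depends on signals through Csf1r and is accompanied by lysosomal and phagocytic genes. Several of the markers are shared with resident cells: Itgax is also high in alveolar macrophages and dendritic cells, and Csf1r and Cd68 in macrophages of every origin. In whole-lung RNA, a change in the number of such cells cannot be told apart from a change in the RNA of each cell.

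The promoters of 6 of the genes are shown, chosen by the calls of the main fit given below. Of these, 4 (Trem2, Ms4a7, Itgax and Cd68) were called higher after OVA in both protocols. Ccr2 and Ly6c2 were called in the test of whether the OVA effect differed between protocols. The Ly6c2 call was close to the threshold and was lost in 20 of 34 alternatives. Each line gives the 250 bases before the annotated transcription start, 5′ to 3′ on the strand of the gene, from RefSeq on build GRCm38.p6. Capitals mark GAGGAA, the core bound by the myeloid factor PU.1, or its reverse complement.
Trem2, chr17:48346151-48346400, plus strand: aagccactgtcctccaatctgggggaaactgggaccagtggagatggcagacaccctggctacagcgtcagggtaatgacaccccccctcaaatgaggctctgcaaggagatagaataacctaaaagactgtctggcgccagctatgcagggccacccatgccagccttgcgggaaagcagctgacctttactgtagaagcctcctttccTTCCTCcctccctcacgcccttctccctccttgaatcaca
Ms4a7, chr19:11336147-11336396, minus strand: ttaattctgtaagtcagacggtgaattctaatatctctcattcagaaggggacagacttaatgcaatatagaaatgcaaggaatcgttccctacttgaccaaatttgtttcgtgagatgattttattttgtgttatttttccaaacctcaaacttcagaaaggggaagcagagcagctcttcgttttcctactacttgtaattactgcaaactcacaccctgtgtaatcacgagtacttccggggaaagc
Itgax, chr7:128129300-128129549, plus strand: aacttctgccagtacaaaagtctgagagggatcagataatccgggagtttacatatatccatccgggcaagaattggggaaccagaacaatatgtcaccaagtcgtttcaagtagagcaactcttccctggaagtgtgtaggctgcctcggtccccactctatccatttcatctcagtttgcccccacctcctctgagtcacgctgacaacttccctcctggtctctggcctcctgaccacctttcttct
Cd68, chr11:69666171-69666420, minus strand: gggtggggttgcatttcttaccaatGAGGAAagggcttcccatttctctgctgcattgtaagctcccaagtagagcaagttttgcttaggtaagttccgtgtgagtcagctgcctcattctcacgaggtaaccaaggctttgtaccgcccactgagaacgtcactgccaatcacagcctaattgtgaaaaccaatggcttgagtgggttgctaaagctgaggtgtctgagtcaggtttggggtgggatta
Ccr2, chr9:124101933-124102182, plus strand: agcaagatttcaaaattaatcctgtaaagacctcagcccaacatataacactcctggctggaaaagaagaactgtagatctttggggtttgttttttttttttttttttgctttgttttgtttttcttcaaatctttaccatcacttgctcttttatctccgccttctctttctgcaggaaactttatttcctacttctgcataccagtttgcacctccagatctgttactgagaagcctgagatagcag
Ly6c2, chr15:75111972-75112221, minus strand: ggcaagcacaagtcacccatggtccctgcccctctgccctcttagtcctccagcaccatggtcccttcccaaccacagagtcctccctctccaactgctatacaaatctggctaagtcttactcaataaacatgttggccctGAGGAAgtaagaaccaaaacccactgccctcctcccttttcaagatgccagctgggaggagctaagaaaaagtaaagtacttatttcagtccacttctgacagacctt

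Of the 8 members with a promoter in the table, 4 held GAGGAA on either strand (Fcgr1, Cd68, Ly6c2 and Trem2). These 8 members have 10 windows, and 5 of the windows held it, against 23.3% of 32851 mouse promoter windows of the same length. Ly6c2 has a second window, not shown, that shares most of its bases and its match with the first. That window holds a further match at -8 to -3. In Trem2 it lay at positions -40 to -35 from the start site and in Cd68 at -225 to -220. The STAT6 motif, TTC and GAA with any 4 bases between, was found in Itgax at -127 to -118 and in Ms4a7 at -13 to -4, and in 5.85% of all windows. Apart from the match that both Ly6c2 windows share, no 2 matches overlapped, and a match is a run of letters and not a measured binding site. On the mm10 build with GENCODE annotation, the transcribed regions were Trem2 on chromosome 17 (48346401 to 48354147), Ms4a7 on chromosome 19 (11321039 to 11336146), Itgax on chromosome 7 (128129547 to 128150657), Cd68 on chromosome 11 (69664213 to 69666153), Ccr2 on chromosome 9 (124101950 to 124113557), Cx3cr1 on chromosome 9 (119901616 to 120069879), Fcgr1 on chromosome 3 (96282909 to 96293969), Ly6c2 on chromosome 15 (75108158 to 75111970), Cd14 on chromosome 18 (36725067 to 36726798) and Csf1r on chromosome 18 (61100598 to 61132149). All are protein-coding genes.

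Trem2, Ms4a7, Itgax and Cd68 rose after OVA inhalation in both protocols. After the long protocol 5 of 10 genes rose relative to PBS (Trem2, Ms4a7, Ly6c2, Itgax and Cd68) and none fell, where 1.03% of the 15682 genes tested rose and 1.18% were called in either direction. After the short protocol 7 of 10 rose (Trem2, Ms4a7, Cd14, Itgax, Ccr2, Cd68 and Csf1r) and none fell, where 12.4% of all genes rose and 11.7% fell. The members' median log2 fold change was 1.16 in the long and 1.72 in the short protocol, beside -0.02 and -0.06 for all tested genes. A gene is called here when its p, from limma on log2(FPKM + 0.5) of all 22 libraries and adjusted by Benjamini-Hochberg over all tested genes, is under 0.05. Fold changes are on that scale with their SE, and understate changes of genes near 0.

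**Figure D1:**
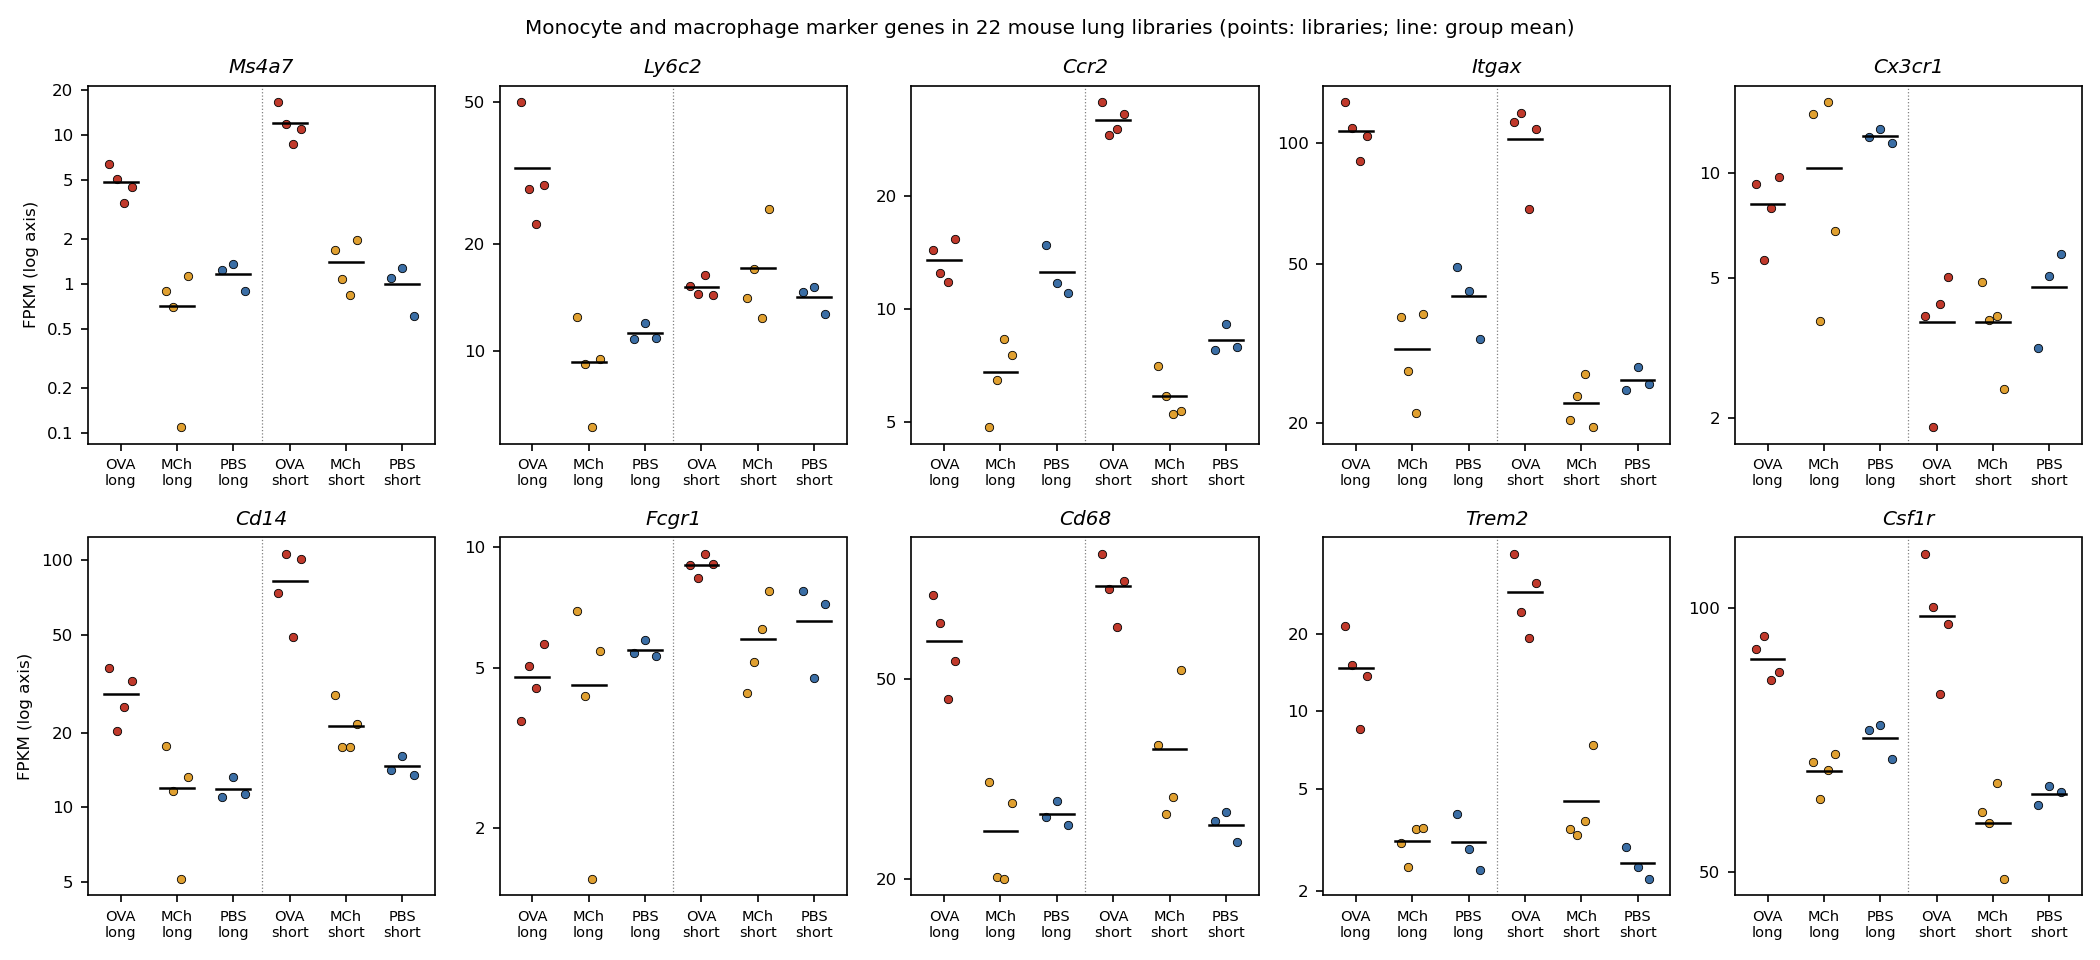
FPKM of each marker gene (log axis) by group, with OVA left of MCh left of PBS and the long protocol left of the short; points are libraries and lines group means. Trem2, Ms4a7, Itgax, Cd68, Cd14 and Csf1r stand above the PBS libraries of the same protocol in all 4 OVA libraries of both protocols. Ccr2 and Fcgr1 do so in the short protocol and Ly6c2 in the long one. Of these, Cd14 and Csf1r were called against PBS in the short protocol only, and Fcgr1 in neither.

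**Figure D2:**
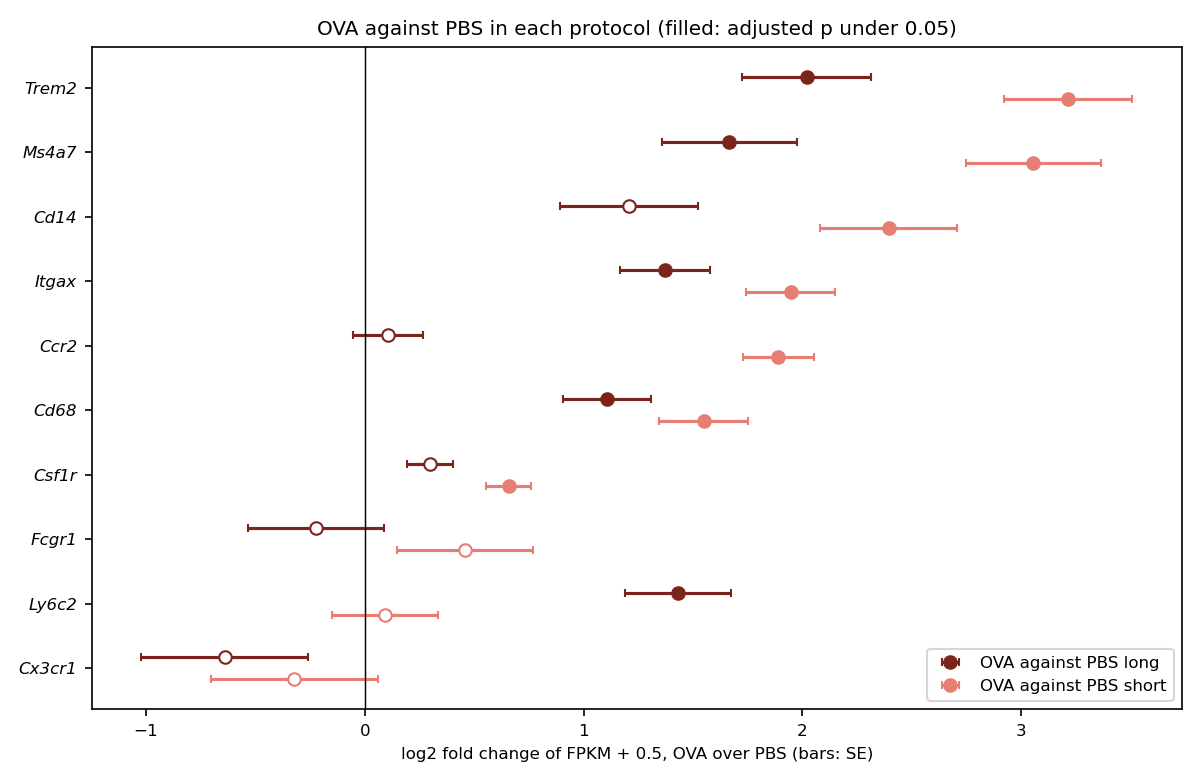
Log2 fold change of OVA over PBS for each gene on the log2(FPKM + 0.5) scale (bars, SE), with the long protocol above the short one and filled points where the adjusted p is under 0.05. Trem2 and Ms4a7 have the largest values in the short protocol, 3.21 and 3.06, while Ly6c2 is at 1.43 in the long and 0.09 in the short protocol.

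Among the receptors that guide monocytes, Ccr2 differed between protocols. Ccr2, the receptor for Ccl2, Ccl7 and Ccl12, had 14.4, 12.5, 11.8 and 15.4 FPKM in long OVA lungs, against 14.8, 11.8 and 11.0 FPKM in long PBS lungs. In short OVA lungs it had 35.6, 29.1, 30.3 and 33.1 FPKM, against 7.76, 9.11 and 7.94 FPKM in short PBS lungs. The long groups overlapped, whereas every short OVA library lay far above every short PBS library. The log2 fold change was 0.11 ± 0.16 in the long protocol (adjusted p = 1) and 1.89 ± 0.16 in the short one (adjusted p = 1.02e-07). The test of the difference, the OVA effect in the long minus that in the short protocol, gave -1.78 ± 0.23 (adjusted p = 0.000167). In that comparison 2 of 10 members were called, Ccr2 and Ly6c2, where 1.88% of all genes were.

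Cx3cr1, the fractalkine receptor of patrolling monocytes, was not called after OVA. It had 9.32, 5.64, 7.98 and 9.72 FPKM in long OVA lungs, against 12.7, 13.4 and 12.2 FPKM in long PBS lungs. Every long OVA library lay below every long PBS library, as for 13.2% of all genes, yet the log2 difference of -0.64 ± 0.38 did not pass the test (adjusted p = 0.891). In the short protocol the values were 3.90, 1.88, 4.22 and 5.04 FPKM in OVA lungs, against 3.17, 5.09 and 5.88 FPKM in PBS lungs, and the groups overlapped (-0.32 ± 0.38, adjusted p = 0.590).

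Ly6c2, one of the genes for the Ly6C antigen of classical monocytes, ran the other way from Ccr2. It had 49.9, 28.5, 22.7 and 29.2 FPKM in long OVA lungs, against 10.8, 12.0 and 10.9 FPKM in long PBS lungs. All 4 long OVA libraries were higher, with library a the highest, and the log2 fold change was 1.43 ± 0.24 (adjusted p = 0.00276). In the short protocol OVA lungs had 15.2, 14.4, 16.3 and 14.3 FPKM, against 14.7, 15.1 and 12.7 FPKM in PBS lungs, which overlapped (0.09 ± 0.24, adjusted p = 0.833). The OVA effect was larger in the long than in the short protocol by 1.34 ± 0.34 (adjusted p = 0.0486), a call close to the threshold that was lost in 20 of 34 alternatives, with adjusted p between 0.000516 and 0.124 over all of them. Among the losses are the fits that leave out any 1 of the 6 PBS or 4 short OVA libraries, where the difference stayed between 1.30 and 1.42, and the fit without long OVA library a, the highest, where it was 1.12 (adjusted p = 0.0708).

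Ly6c2 has a close copy, and its values are uncertain for that reason. Ly6c1 (chromosome 15, 75044018 to 75048830), abundant in lung endothelium, matches Ly6c2 at 384 of 393 coding bases, with a longest identical run of 188 bases, and how shared reads were assigned is not given in the sources used here. Ly6c1 had 515, 657, 466 and 558 FPKM in long OVA lungs, against 565, 645 and 655 FPKM in long PBS lungs, and 853, 935, 883 and 938 FPKM in short OVA lungs, against 1032, 781 and 996 FPKM in short PBS lungs. OVA and PBS overlapped in both protocols, with log2 fold changes of -0.19 ± 0.20 in the long and -0.04 ± 0.20 in the short protocol (adjusted p = 1 and 0.905). Ly6c1 had 466 to 657 FPKM in long OVA lungs, against 693 to 889 FPKM in long MCh lungs, without overlap, and the difference was not called (-0.50 ± 0.18, adjusted p = 0.1005). The part of shared reads in the Ly6c2 values was not tested. In the transcript table the 822-base Ly6c2 transcript ran from 59.2 to 126 FPKM in long OVA lungs, against 18.3 to 28.6 FPKM in long PBS lungs, and made up 84.6% to 92.4% of the gene's summed FPKM there, against 59.4% to 84.5%.

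**Figure D3:**
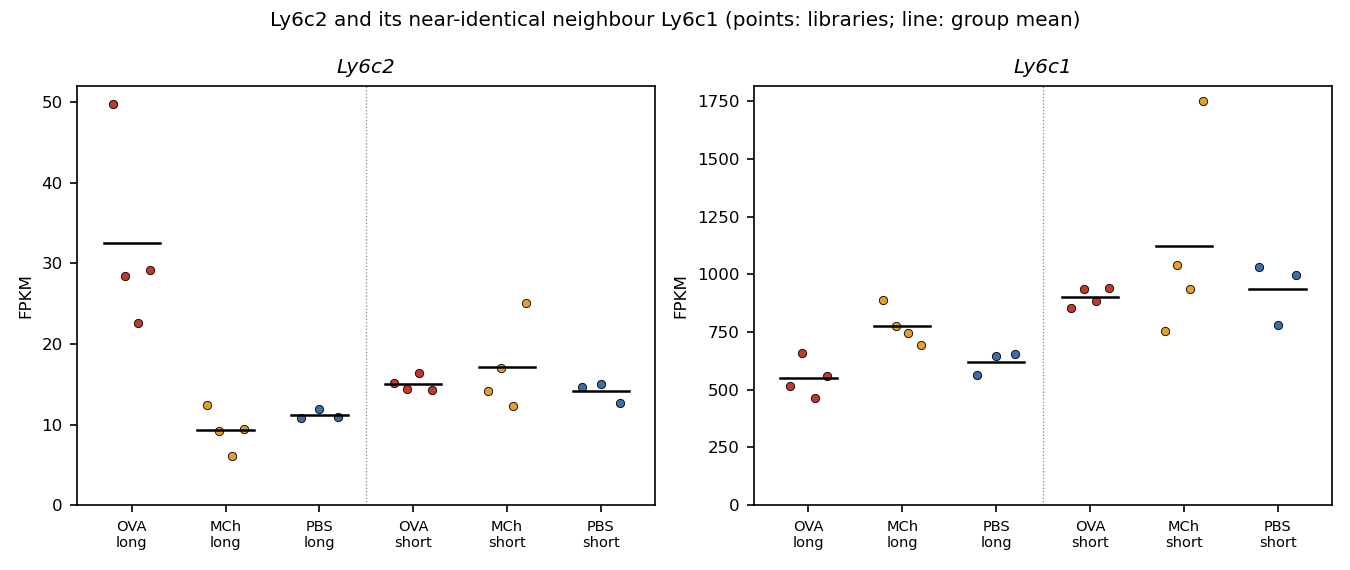
FPKM of Ly6c2 and of Ly6c1 by group (linear axes from 0); points are libraries and lines group means. Ly6c2 stands between 22.7 and 49.9 FPKM in long OVA lungs, above the other groups except short MCh library 4 at 25.1 FPKM, while Ly6c1 in long OVA lungs stands at 466 to 657 FPKM, overlapping long PBS lungs and below long MCh lungs and the 3 short groups.

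Csf1r, the receptor for the macrophage growth factors Csf1 and Il34, was high in every group and moved little. It had 89.9, 92.9, 82.8 and 84.6 FPKM in long OVA lungs, against 72.6, 73.6 and 67.2 FPKM in long PBS lungs. In short OVA lungs it had 115, 100.3, 79.8 and 96.0 FPKM, against 59.7, 62.6 and 61.7 FPKM in short PBS lungs. OVA lay above PBS without overlap in both protocols, but only the short difference of 0.66 ± 0.10 was called (adjusted p = 0.000157); the long one was 0.30 ± 0.10 (adjusted p = 0.295). The protocols' effects were not shown to differ (-0.36 ± 0.15, adjusted p = 0.251).

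The largest rises belonged to genes of differentiated macrophages. Trem2, a lipid-sensing receptor that signals through Tyrobp, had 21.4, 15.1, 8.51 and 13.7 FPKM in long OVA lungs, against 4.01, 2.93 and 2.43 FPKM in long PBS lungs. In short OVA lungs it had 40.8, 24.2, 19.3 and 31.6 FPKM, against 2.99, 2.49 and 2.24 FPKM in short PBS lungs. Every OVA library exceeded every PBS library in both protocols, by a log2 fold change of 2.02 ± 0.29 in the long (adjusted p = 0.000677) and 3.21 ± 0.29 in the short protocol (adjusted p = 2.37e-07).

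Ms4a7, a membrane-spanning protein expressed in macrophages, followed the same course at a lower level. It had 6.37, 5.07, 3.46 and 4.49 FPKM in long OVA lungs, against 1.24, 1.36 and 0.895 FPKM in long PBS lungs, and 16.6, 11.8, 8.68 and 11.0 FPKM in short OVA lungs, against 1.10, 1.28 and 0.609 FPKM in short PBS lungs. The groups did not overlap in either protocol. The log2 fold change was 1.67 ± 0.31 in the long (adjusted p = 0.00591) and 3.06 ± 0.31 in the short protocol (adjusted p = 8.61e-07). Without long PBS library 3 the long call was lost (adjusted p = 0.0609, in a range of 8.06e-06 to 0.0609 over 34 alternatives). In the transcript table an 882-base form of Ms4a7 held 2.98% to 32.7% of the gene's summed FPKM in the 4 short OVA libraries. Its share was 0% to 18.7% in short MCh and 0% to 14.6% in short PBS libraries, ranges that overlap that of OVA, with 2 libraries of each group listed at 0.

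Cd68, a lysosomal membrane protein of phagocytes, rose in both protocols. Long OVA lungs had 73.3, 64.6, 45.7 and 54.3 FPKM, against 26.6, 28.6 and 25.6 FPKM in long PBS lungs, and short OVA lungs had 88.6, 75.5, 63.3 and 78.3 FPKM, against 26.1, 27.2 and 23.7 FPKM in short PBS lungs. PBS lungs were nearly alike in both protocols, and all OVA libraries lay above them. The log2 fold change was 1.11 ± 0.20 in the long (adjusted p = 0.00569) and 1.55 ± 0.20 in the short protocol (adjusted p = 2.07e-05).

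Itgax, the integrin chain CD11c, which pairs with the product of Itgb2, reached similar levels after OVA in both protocols. It had 126, 109, 90.1 and 104 FPKM in long OVA lungs, against 49.2, 42.9 and 32.4 FPKM in long PBS lungs, and 113, 119, 68.6 and 108 FPKM in short OVA lungs, against 24.2, 27.6 and 25.0 FPKM in short PBS lungs. No OVA library overlapped PBS in either protocol. The log2 fold change was 1.37 ± 0.20 in the long (adjusted p = 0.000864) and 1.95 ± 0.20 in the short protocol (adjusted p = 1.38e-06).

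Of the surface receptors for microbial products and antibody, Cd14 changed clearly in the short protocol and Fcgr1 hardly at all. Cd14, the lipopolysaccharide co-receptor of Tlr4, had 36.7, 20.3, 25.6 and 32.4 FPKM in long OVA lungs, against 11.0, 13.3 and 11.3 FPKM in long PBS lungs. In short OVA lungs it had 74.0, 106, 48.8 and 101 FPKM, against 14.2, 16.2 and 13.5 FPKM in short PBS lungs. OVA lay above PBS without overlap in both protocols. The short log2 fold change of 2.39 ± 0.31 was called (adjusted p = 2.12e-05), while the long one, 1.21 ± 0.31, missed the threshold (adjusted p = 0.0712) and passed it in 9 of 34 alternatives (0.000104 to 0.281).

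Fcgr1, the high-affinity IgG receptor CD64, had 3.69, 5.06, 4.46 and 5.75 FPKM in long OVA lungs, against 5.44, 5.87 and 5.36 FPKM in long PBS lungs, and 9.05, 8.35, 9.63 and 9.08 FPKM in short OVA lungs, against 7.78, 4.71 and 7.20 FPKM in short PBS lungs. The long groups overlapped and the short ones did not. Neither difference was called, at -0.22 ± 0.31 in the long (adjusted p = 1) and 0.46 ± 0.31 in the short protocol (adjusted p = 0.308; called in 4 of 35 alternatives, 0.0206 to 0.675). Groups failed to overlap with OVA higher for 7 of 10 members in the long protocol, against 9.95% of all genes, and for 8 of 10 in the short protocol, against 23.2%.

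For 8 of the 10 genes the OVA effect was not shown to differ between protocols. Their differences, long minus short, ran from -1.39 ± 0.44 for Ms4a7 (adjusted p = 0.123), -1.19 ± 0.42 for Trem2 (0.171) and -1.19 ± 0.44 for Cd14 (0.207) to -0.32 ± 0.54 for Cx3cr1 (0.842). All 8 were below 0. In a fit without 3 MCh libraries in which many genes were listed at 0, 4 members were called in this comparison, Ms4a7 (adjusted p = 0.0267) and Cd14 (adjusted p = 0.0366) besides Ccr2 and Ly6c2; over 34 alternatives the adjusted p ran from 0.000737 to 0.359 for Ms4a7 and from 0.00418 to 0.434 for Cd14.

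**Figure D4:**
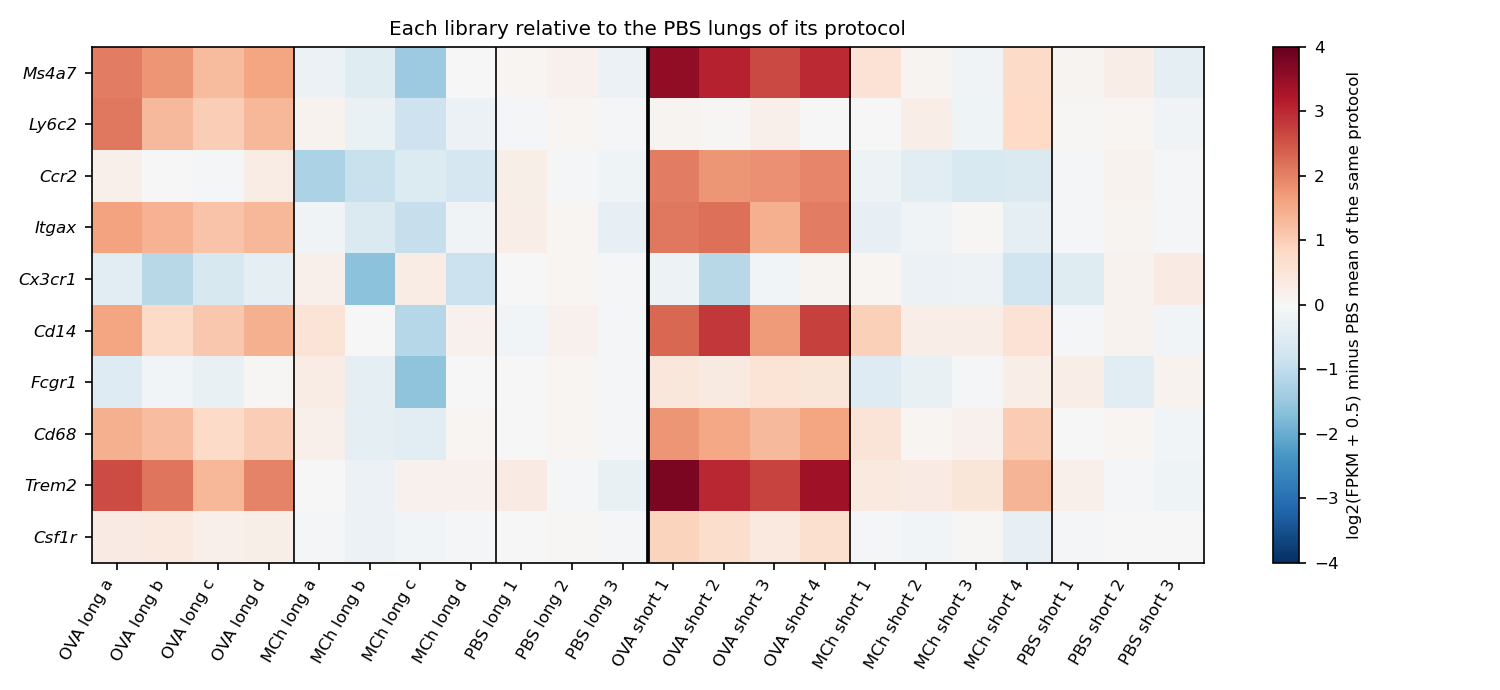
Each library's log2(FPKM + 0.5) minus the mean of the PBS libraries of its own protocol (red, higher; blue, lower), long protocol left of the short, with OVA, MCh and PBS from left to right in each. Trem2 and Ms4a7 are deepest red in short OVA lungs, Ccr2 is red in short OVA lungs alone, and Ly6c2 is red in long OVA lungs.

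MCh, which like PBS carries no antigen, left the 10 genes without a called change. Of 10 members 0 were called in the long protocol, where 0.0638% of all genes were (2551 at an unadjusted p under 0.05), and 0 in the short protocol, where 0.00638% were (1175 at an unadjusted p under 0.05); all these counts are limma's. Ccr2 came closest. It had 4.83, 6.46, 8.29 and 7.56 FPKM in long MCh lungs, against 14.8, 11.8 and 11.0 FPKM in long PBS lungs. It had 7.05, 5.84, 5.25 and 5.35 FPKM in short MCh lungs, against 7.76, 9.11 and 7.94 FPKM in short PBS lungs. Each MCh library was below each PBS library of its protocol, as for 10.5% of all genes in the long and 5.52% in the short protocol. No member was higher in long MCh lungs without overlap, where 2.6% of all genes were. The log2 differences were -0.85 ± 0.16 (adjusted p = 0.0574; 0.00150 to 0.674 over 34 alternatives, called in 6) and -0.47 ± 0.16 (adjusted p = 0.531). Over all tested genes the median log2 change of long MCh against long PBS was -0.14, and it moved to 0.02 under quantile normalization, so that the members' median of -0.36 is to be read against that shift.

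In short MCh lungs Trem2 had 3.48, 3.31, 3.74 and 7.41 FPKM, against 2.99, 2.49 and 2.24 FPKM in short PBS lungs, and Cd14 had 28.5, 17.6, 17.6 and 21.8 FPKM, against 14.2, 16.2 and 13.5 FPKM. Both groups of values were higher in MCh without overlap, as for 3.24% of all genes, and neither was called (0.64 ± 0.29, adjusted p = 0.658, and 0.51 ± 0.31, adjusted p = 0.733). In long MCh lungs Cx3cr1 spread from 3.77 to 16.0 FPKM, the highest values being those of libraries a and c. These 2 libraries and short MCh library 1 had 28.3% to 34.3% of genes listed at 0, against 22.5% to 25.3% in the remaining libraries. The lowest member value of all, 0.108 FPKM of Ms4a7 in long MCh library c, rests on an estimated 5 fragments.

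Against MCh, OVA lungs again had more of most markers. In the long protocol 8 of 10 members were higher in OVA, where 4.75% of all genes were, and none lower, where 1.31% were (6.06% in either direction). In the short protocol 7 of 10 were higher, where 9.37% were, and none lower, where 5.82% were. Without overlap, 8 of 10 members were higher in OVA in each protocol, where 9.6% of all genes were in the long and 11.8% in the short, and no member was lower, where 4.07% and 6.3% were. MCh and PBS lungs of a protocol are compared with the same OVA libraries, so these counts are no second sample of OVA mice. Ccr2 was higher than in MCh in both protocols, by 0.96 ± 0.15 in the long (adjusted p = 0.000478) and 2.36 ± 0.15 in the short (adjusted p = 1.25e-09). Ly6c2 was higher by 1.73 ± 0.22 in the long protocol (adjusted p = 6.96e-05), while in the short one OVA had 14.3 to 16.3 FPKM and MCh 12.3 to 25.1 FPKM (-0.13 ± 0.22, adjusted p = 0.760). Cd14 and Csf1r, not called against PBS in the long protocol, were called against MCh there (1.32 ± 0.29, adjusted p = 0.00965, and 0.42 ± 0.10, adjusted p = 0.0126). The Csf1r call was lost in 3 of 34 alternatives (adjusted p from 0.00137 to 0.0835), among them median-of-ratios scaling (0.31, adjusted p = 0.0663), and the Cd14 call in 1 of 34 (0.000502 to 0.118), the fit on the groups of the contrast alone. The median of all genes in that comparison was 0.14, and -0.04 under quantile normalization. Cx3cr1 and Fcgr1 were called in neither protocol.

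PBS lungs of both protocols were compared to see where the genes stood without antigen. Challenge began on day 70 in both, so long and short PBS mice differ in length of treatment, number of challenges and age at its end. These cannot be told apart here. None of the 10 was called, where 0.166% of all genes were and 0.0191% were higher (limma, 854 at an unadjusted p under 0.05). Cx3cr1 was the most different, at 12.7, 13.4 and 12.2 FPKM in long PBS lungs, against 3.17, 5.09 and 5.88 FPKM in short PBS lungs. The groups were wide apart, but the log2 difference of 1.38 ± 0.41 missed the threshold (adjusted p = 0.302) and was called in 4 of 35 alternatives (0.00281 to 1). The SE of the main fit comes from a spread shared by all 6 groups. In the limma fit on the PBS groups alone it was 0.20 (adjusted p = 0.0446), where 168 of all genes were called. Ccr2, Itgax and Csf1r were also higher in long PBS lungs without overlap, as 18.9% of all genes were, and Ly6c2 and Cd14 lower without overlap, as 9.16% were. Fold changes between the PBS groups went with transcript length across genes (Spearman's rho 0.283, 15475 genes), and those of OVA against PBS did so in the short protocol (-0.449) more than in the long one (-0.115). Those of MCh against PBS did so alike, at -0.445 in the short and -0.0435 in the long protocol. The OVA effect, long minus short, had the rho largest in size of the 9 contrasts, 0.464. With each library's trend on length removed, 6 members were called after long OVA and 7 after short OVA. Over all genes the count called after long OVA also rose, from 185, so that gain is not particular to the members. After short OVA the count over all genes went from 3790 to 3299.

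The libraries of a group differed for several genes at once. Among long OVA lungs library a was highest for 6 members and library c lowest for 7, and among short OVA lungs library 1 was highest for 5 and library 3 lowest for 6. Across the 22 libraries Ms4a7 went with Cd68 (Pearson's r = 0.961) and Cd68 with Trem2 (0.961), and within groups, after the group means were taken out, r was 0.807 and 0.756. Ccr2 and Ms4a7 had r = 0.850 over all libraries and 0.038 within groups. These values are descriptions over 22 libraries that share 6 groups and their depth.

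The genes most like each member over the 22 libraries, among 12762 with a mean of at least 1 FPKM, were found by Pearson's r of log2(FPKM + 0.5). Ms4a7 was most like the lysosomal protease gene Ctss (0.987) and Chil1 (0.982), Trem2 like Ccl9 (0.981) and Lcn2 (0.973), and Cd68 like Ccl6 (0.966) and Lcn2 (0.960). Itgax was most like Lhfpl2 (0.977) and the macrophage elastase gene Mmp12 (0.963), and Cd14 like Ifngr2 (0.965) and the complement gene C1qc (0.963). Ccr2 was most like Cish (0.947) and Pdcd1lg2 (0.946), whose r within groups was 0.270 and 0.049, and Csf1r like Slc25a35 (0.948) and Prkcd (0.924). Ly6c2 was most like Ctsd (0.896) and Gpnmb (0.813). Close behind Gpnmb came Txndc5 (0.804), Slpi (0.798) and Jchain (0.795), whose r with Ly6c2 within groups was 0.636, 0.643 and 0.285. Which cells carried the Ly6c2 RNA was not tested. Cx3cr1 was most like Phka2 (0.904) and Ttc7 (0.896), and Fcgr1 like Jagn1 (0.891) and Tomm40l (0.889).

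The order of the members by level depends on the table. In long OVA lungs the gene table gave Itgax 107 ± 15.0, Csf1r 87.5 ± 4.67, Cd68 59.5 ± 12.0 and Ly6c2 32.5 ± 11.9 FPKM (SD, n = 4). The summed transcript table gave Ly6c2 92.0 ± 33.7, Cd68 77.3 ± 15.6, Itgax 64.0 ± 11.0 and Csf1r 41.8 ± 2.23 FPKM for the same libraries. For every one of 10081 genes with a single transcript both tables differed by a factor that was constant within 1% over libraries, which leaves fold changes alone; it was 0.253 for Cx3cr1 and 1.30 for Cd68.

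Among ligands, signalling partners and transcription factors of the 10 genes, the Ccr2 ligands Ccl7, Ccl2 and Ccl12 had the largest rises after short OVA. Of 16 such genes 2 rose after long OVA (1 to 10 across processing alternatives) and none fell, and 9 rose and 1 fell after short OVA (8 to 15 and 1). Over all genes 1.18% were called in either direction after long OVA and 24.2% after short OVA, so more calls in the short protocol are not particular to these genes. The Ccr2 ligand Ccl7 was at 12.6 ± 2.90 FPKM in long OVA lungs and 1.72 ± 0.238 FPKM in long PBS lungs (SD, n = 4 and 3), and at 149 ± 20.9 FPKM in short OVA lungs and 0.678 ± 0.145 FPKM in short PBS lungs. Its log2 fold change was 2.54 ± 0.45 in the long (adjusted p = 0.00488) and 6.98 ± 0.45 in the short protocol (adjusted p = 2.00e-09), and the difference of -4.45 ± 0.64 was called (adjusted p = 0.000511). Ccl2 had 8.77 ± 2.61 FPKM in long OVA lungs and 1.46 ± 0.357 FPKM in long PBS lungs, and 98.7 ± 18.3 FPKM in short OVA lungs and 1.40 ± 0.862 FPKM in short PBS lungs; its effects differed by -3.56 ± 0.86 (adjusted p = 0.0364). Ccl12 rose by 4.67 ± 0.54 in the short protocol (adjusted p = 4.44e-06) and was not called in the long one (2.10 ± 0.54, adjusted p = 0.0648).

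The Trem2 adaptor gene Tyrobp and the Fcgr1 adaptor gene Fcer1g rose by 1.61 ± 0.25 and 1.60 ± 0.23 in the short protocol. The Cd14 partner Tlr4 rose by 1.05 ± 0.15, the PU.1 gene Spi1 by 1.09 ± 0.17, the Itgax partner Itgb2 by 0.71 ± 0.14 and the growth factor gene Csf2 by 0.80 ± 0.29 (adjusted p between 5.16e-05 and 0.0468). Cx3cl1, the ligand of Cx3cr1, fell by 0.67 to 2.44 ± 0.591 FPKM in short OVA lungs, against 4.10 ± 0.247 FPKM in short PBS lungs (adjusted p = 0.0160). Itgb2 also rose in the long protocol, by 0.88 ± 0.14 (adjusted p = 0.00129). The Csf1r ligands Csf1 and Il34 were not called in either protocol. Csf1 had 52.0 to 77.6 FPKM in short OVA lungs, against 34.9 to 39.7 FPKM in short PBS lungs, without overlap, as for 23.2% of all genes. Il34 had 30.6 to 34.5 FPKM in long OVA lungs, against 22.4 to 25.4 FPKM in long PBS lungs, as for 9.95%. With library weights all 16 listed genes were called after short OVA, 15 higher and 1 lower, where 7994 of all genes were called.

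Other markers of the monocyte lineage were read beside the 10 genes. Over all genes 1.03% rose and 0.153% fell after long OVA, and 12.4% rose and 11.7% fell after short OVA. In lists of this size 1 call in a direction after short OVA is near the share of all genes. Of 8 classical monocyte genes none was called after long OVA (0 to 4 across processing alternatives) and 5 rose after short OVA, led by S100a4 (2.88 ± 0.25), Ccr1 (2.39 ± 0.32) and Vcan (1.87 ± 0.25). Of 7 non-classical monocyte genes none was called after long OVA and 1 fell after short OVA, Ace (-1.43 ± 0.22), which lung endothelium also expresses. Of 10 interstitial macrophage genes 3 rose after long OVA, C1qa and C1qb among them, and 8 after short OVA, including C1qb (2.86 ± 0.22), C1qa (2.68 ± 0.23) and Cd163 (2.81 ± 0.28). Of 10 alveolar macrophage genes 1 rose and 1 fell after long OVA, and 3 rose and 1 fell after short OVA.

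Markers of further cell types that whole lung holds moved as follows. They stand beside 12.4% of all genes that rose and 11.7% that fell after short OVA, and 1.03% and 0.153% after long OVA. Counts of 1 of 8, 1 of 5 or 2 of 9 after short OVA are near or little above those shares. They are not read as a change of the cell type. Of 7 eosinophil genes 1 rose after long OVA and 6 after short OVA. Their summed level was 5.14 to 13.02 FPKM in long OVA lungs, against 6.24 to 9.13 FPKM in long PBS lungs. In short OVA lungs it was 42.7 to 91.4 FPKM, against 0.637 to 6.50 FPKM in short PBS lungs. Most of the short OVA sum was Alox15, which averaged 57.1 FPKM there and 2.13 FPKM in short PBS lungs. Ccr3 and Prg2 came next in short OVA lungs, with means of 6.64 and 3.30 FPKM. Of 9 dendritic cell genes none was called after long OVA (0 to 1 rose and 0 to 2 fell across processing alternatives). After short OVA 2 rose (Clec10a, 2.98 ± 0.34, and Cd209a, 1.96 ± 0.33) and none fell (2 to 3 and 0 to 2). Clec9a, not called, had 9.12 to 12.1 FPKM in short OVA lungs, against 22.2 to 26.8 FPKM in short PBS lungs. In long OVA lungs it had 19.6 to 26.7 FPKM, against 28.5 to 31.7 FPKM in long PBS lungs. The list summed to 38.4 to 46.9 FPKM in long OVA lungs, against 49.6 to 53.9 FPKM in long PBS lungs. It summed to 58.8 to 68.5 FPKM in short OVA lungs, against 45.4 to 57.1 FPKM in short PBS lungs. After short OVA 1 of 8 neutrophil genes rose (Retnlg, 4.04 ± 0.39), 1 of 8 T and NK cell genes (Gzma, 1.06 ± 0.37), and 3 of 8 endothelial genes (Tek, -0.98 ± 0.14, Cdh5, -0.94 ± 0.18, and Kdr, -1.06 ± 0.23) and 1 of 5 epithelial genes (Sftpb, -0.93 ± 0.14) fell. After long OVA none of these 4 lists had a called gene, but across processing alternatives up to 4 endothelial genes and up to 1 epithelial gene fell there; after short OVA 0 to 4 T and NK cell genes rose. Neither of 2 heart muscle genes was called in either protocol. The part of these cell types in the results for the 10 genes was not tested.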

How the data were processed

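Lung RNA was prepared with RNeasy kits and DNase I and made into TruSeq Stranded Total RNA libraries, per the labels' protocols. Gene (20938) and transcript (36844) tables hold FPKM, as deposited by the authors; Trim Galore, STAR, DESeq2 and mm10 are named in the submitters' processing notes, while no source used here gives versions, roles or the program behind FPKM. Read counts were not used here; the smallest steps of FPKM give a depth of roughly 15.2 to 25.5 fragments per kilobase at 1 FPKM. Of the 22 columns, 14 carry the labels' replicate numbers; 8 (long OVA and long MCh) can be tied only to their group and carry letters a to d. Genes with at least 0.1 FPKM in at least 3 libraries (15682) were fitted with limma 3.58.1 in R 4.3.3 (1 coefficient per group, trended eBayes, two-sided) for 9 contrasts. P-values set a difference between groups against a spread between libraries that is shared by all 6 groups, those outside the comparison included.

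The members and gene lists were chosen with earlier results of these data known. Named genes are the 10 members, Ly6c1, the 2 genes most like each member, every called ligand or partner, and up to 3 genes of each other list with the smallest p in short OVA against short PBS; remaining names fall outside that rule and were chosen after their values were seen. The alternatives changed the pseudocount, the filter, the scaling, library weights, the table (summed transcripts), the groups in the fit, a trend on transcript length and the libraries included.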

Additional observations from a re-analysis of the deposited data

Results flagged for a closer look

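In the 4 short MCh libraries Trem2 had 7.41 FPKM in library 4 and 3.31 to 3.74 FPKM in the others; the gap to the next library was 0.894 of the group's range, above the limit of 0.829 for 4 values. It was the only such value in 40 gene-by-group sets of 4 libraries, where chance gives about 1 in 20. The same library was the highest of its group for 5 members and had the second lowest library weight in a weighted fit (0.0834).

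The OVA effect on Ccr2 differed between protocols, the long minus the short log2 fold change being -1.78 ± 0.23 (limma, adjusted p = 0.000167; 8.04e-07 to 0.00107 over 34 alternatives). The OVA effect on Ly6c2 differed by 1.34 ± 0.34 in the other direction (limma, adjusted p = 0.0486; 0.000516 to 0.124 over 34 alternatives).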

How the results depend on the processing

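Over 3100 alternative values for the members none reversed a call, 3019 kept their side of the threshold, 25 lost it and 56 gained it. For the OVA effect between protocols, 2 members were called, against 1 with a pseudocount of 0.1, no filter, median-of-ratios scaling or quantile normalization, 8 with library weights, 6 with the groups of the contrast alone, 4 when the 3 sparse libraries were left out and 7 when the 4 of low weight were (all genes called 295, and 193, 272, 280, 376, 4893, 4513, 1030 and 4811). Between PBS groups 0 were called, against 3 with library weights, 1 with the groups alone, 2 without the sparse and 3 without the low-weight libraries (all genes 26, and 1655, 168, 150 and 1213). For MCh against PBS 0 were called, against 2 (long) and 1 (short) with library weights, and 1 (long) with a filter at 1 FPKM or without the low-weight libraries (all genes 10 and 1, and 149, 340, 11 and 11). Counts of members in the OVA comparisons moved less, but all genes called after OVA went to 2047 (long, from 185) and 7994 (short, from 3790) with library weights. The causes were not tested.

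Leaving out each library in turn gave 4 to 6 members for long OVA against PBS, 7 to 7 for short OVA against PBS, 8 to 8 and 7 to 8 for long and short OVA against MCh, 0 to 1 and 0 to 0 for long and short MCh against PBS, 0 to 0 between PBS groups, 1 to 4 for the OVA effect between protocols and 0 to 0 for the MCh effect. Over all genes the same fits moved far more, and the shares of all genes called move with them: 86 to 287 and 2009 to 5013 for long and short OVA against PBS, 413 to 2403 and 1556 to 4835 for long and short OVA against MCh, 1 to 781 and 0 to 3 for long and short MCh against PBS, 0 to 144 between PBS groups, 132 to 1599 for the OVA effect and 0 to 6 for the MCh effect. For the OVA effect the 4 came without short MCh library 4. The single MCh call, Ccr2 in the long protocol, came without long MCh library d, short MCh library 1 or short MCh library 4.

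With a replicate block 7 members were called for short OVA against PBS, 7 for short OVA against MCh, 0 for short MCh against PBS and 0 between PBS groups, with 5913, 1112, 0 and 0 genes in all. Same-numbered libraries of short OVA and PBS correlated at -0.034, -0.270 and -0.118, so the numbers were not taken as pairs; the long OVA and MCh columns carry no label number to block on. FPKM carries no read counts, and Ms4a7 rests on an estimated median of 80.5 fragments, which limits its precision.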

Other observations

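Among alveolar macrophage genes, a resident population set beside the 10 markers, Ctsk and Cidec moved in opposite directions. Ctsk, a lysosomal cysteine protease, rose to 103 ± 38.2 FPKM in long OVA lungs, against 17.6 ± 2.68 FPKM in long PBS lungs, and to 146 ± 54.0 FPKM in short OVA lungs, against 14.1 ± 1.42 FPKM in short PBS lungs (SD, n = 4 and 3; log2 2.44 ± 0.35, adjusted p = 0.000547, and 3.24 ± 0.35, adjusted p = 1.75e-06, limma). Cidec, a lipid droplet protein, fell by 1.65 in the long (SE 0.28, adjusted p = 0.00312) and by 0.87 in the short protocol (SE 0.28, adjusted p = 0.0301). The short call was lost with a pseudocount of 0.1 and with a replicate block. Across processing alternatives 1 to 3 of the 10 genes rose and 0 to 2 fell after short OVA. Over all genes 12.4% rose and 11.7% fell there in the main fit. Atp6v0d2 had 310 to 419 FPKM in short OVA lungs, against 184 to 224 FPKM in short PBS lungs. Car4 had 252 to 318 FPKM, against 177 to 220 FPKM, in the short protocol and 142 to 171 FPKM, against 179 to 218 FPKM, in the long one. Which cells of whole lung carried the Car4 RNA was not tested. Marco, at a low level and not called, had 0.011 to 0.462 FPKM in long OVA lungs, against 0.620 to 1.56 FPKM in long PBS lungs. It was lower without overlap there, as for 13.2% of all genes. In the short protocol it had 0.040 to 0.525 FPKM, against 0.414 to 1.72 FPKM. Siglecf, a surface marker of alveolar macrophages and eosinophils, was called in neither the long nor the short protocol (-0.08 ± 0.23, adjusted p = 1, and -0.21 ± 0.23, adjusted p = 0.547).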
